A study of Mus musculus with 15 samples.

Results

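The 44788 gene symbols measured by RNA-Seq in developing mouse stomach included 37 that encode chains of laminins (11 genes) or integrins (26 genes). They were taken by name, as every symbol made of Lama, Lamb or Lamc and a digit and every integrin alpha or beta chain symbol. Integrin beta binding protein genes were left out. No measured value entered this rule, but the gene families were chosen with earlier results of these data known. Expression was given in FPKM, read fragments scaled to transcript length and to the mapped total of each library, and the entries of a symbol were summed. Of the 37 genes, 35 reached 1 FPKM at 1 or more time points, as did 16902 of all symbols. The other two, Itgad and Itgae, both alpha chains of leukocyte integrins, had highest values of 0.0143 and 0.34 FPKM and were not tested.

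Whole stomachs of C57BL/6 mice, for which no treatment or altered allele is named, were sampled at 15 ages, with 1 library each. The 7 fetal ages ran from E12.5 to E18.5 (embryonic days) in daily steps, the 5 suckling ages were postnatal days 1, 3 and 5 (D1, D3, D5) and weeks 1 and 2 (W1, W2), and the 3 weaned ages were weeks 3, 6 and 8 (W3, W6, W8). The labels give age and not feeding, and the study places weaning at W3, so W3 was put in the weaned block by age alone. The study states that a replicate pooled stomachs of more than 1 embryo from E12.5 to E17.5, without naming the RNA libraries separately. Animals older than the second postnatal week were males, so in the weaned block sex and age cannot be told apart. The ages within a block served as its replicates, so the spread used in every test holds the change with age inside the block as well as differences between animals and libraries, and no age was measured in a second library.

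Laminins are large secreted proteins built of an alpha, a beta and a gamma chain, and with collagen type IV, nidogens and perlecan they form the basement membrane under epithelia and around muscle fibers, vessels and nerves. Integrins are cell surface receptors of an alpha and a beta chain that bind laminins, collagens, fibronectin or counter-receptors on other cells and tie them to the cytoskeleton. Lama3 and Lamb3 are chains of the laminin that epithelial cells anchor to through the hemidesmosome, whose receptor pairs Itga6 with Itgb4, whereas the trimers that hold Lamb1 or Lamb2 with Lamc1 and Lama1, Lama2, Lama4 or Lama5 are found more widely, in muscle, vessels and epithelia alike. In the mouse, the forestomach carries a stratified squamous epithelium and the rest of the stomach a glandular one, both surrounded by smooth muscle.

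The share of summed FPKM taken by the 10 highest symbols was 11.2% at its lowest, in the E14.5 library, and 53.2% at its highest, in the W6 library. The median of all tested symbols moved by −0.22 from the fetal to the suckling block and by −0.42 from the suckling to the weaned block on the log2(FPKM + 1) scale used for all differences here. After each library was scaled by its median ratio to the geometric mean of all libraries, the same medians were 0.0072 and −0.027. Results are therefore given on deposited FPKM and in many cases also on scaled FPKM. A difference or call given without its scale is on deposited FPKM and was not necessarily called on scaled FPKM. Steps, rises and falls at or after birth or weaning are differences of block means, and include changes with age inside the blocks. All 10 stomach markers, such as Barx1, Atp4b and Tff1, were detected in every library. The D1 library also held transcripts of liver, with Alb at 460.5 and Afp at 185.9 FPKM against at most 65.4 and 22.3 FPKM elsewhere. In RNA from whole organs, fewer cells of a type and less RNA per cell cannot be told apart.

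Of the 35 tested chains, 26 differed across the 3 blocks (limma F test, Benjamini-Hochberg adjusted p under 0.01), where 67.9% of all tested symbols did. Suckling stomachs had 6 chains higher and 4 lower than fetal ones, against 10.8% and 30.6% of all symbols. Weaned stomachs had no chain higher and 19 lower than suckling ones, against 2.57% and 28.9% of all symbols, and 0 chains were higher at an unadjusted limma p under 0.05 or by the exact permutation test. On scaled FPKM the counts were 10 higher and 1 lower after birth, where 2966 and 2471 of the 16902 symbols were, and 2 higher and 10 lower after weaning, where 2050 and 1344 symbols were. Called in the same direction on both scales were 6 chains higher and 1 lower after birth (10.7% and 14.6% of all symbols), and 0 higher and 10 lower after weaning (2.57% and 7.95%). At weaning the median difference was −1.29 over the 11 laminin chains and −0.56 over the 24 integrin chains on deposited FPKM, and −0.79 and −0.076 on scaled FPKM. Without W6 the number of chains lower after weaning came to 8, and that of all symbols went from 4877 to 1375 of 16902. Of those 8 chains, 6 were laminins, namely Lama2, Lama4, Lama5, Lamb1, Lamb2 and Lamc1. Without W1 only 2 chains, Lamb3 and Itga7, were higher in the suckling than in the fetal block, where 1374 of the 16902 symbols were.

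**Figure D1:**
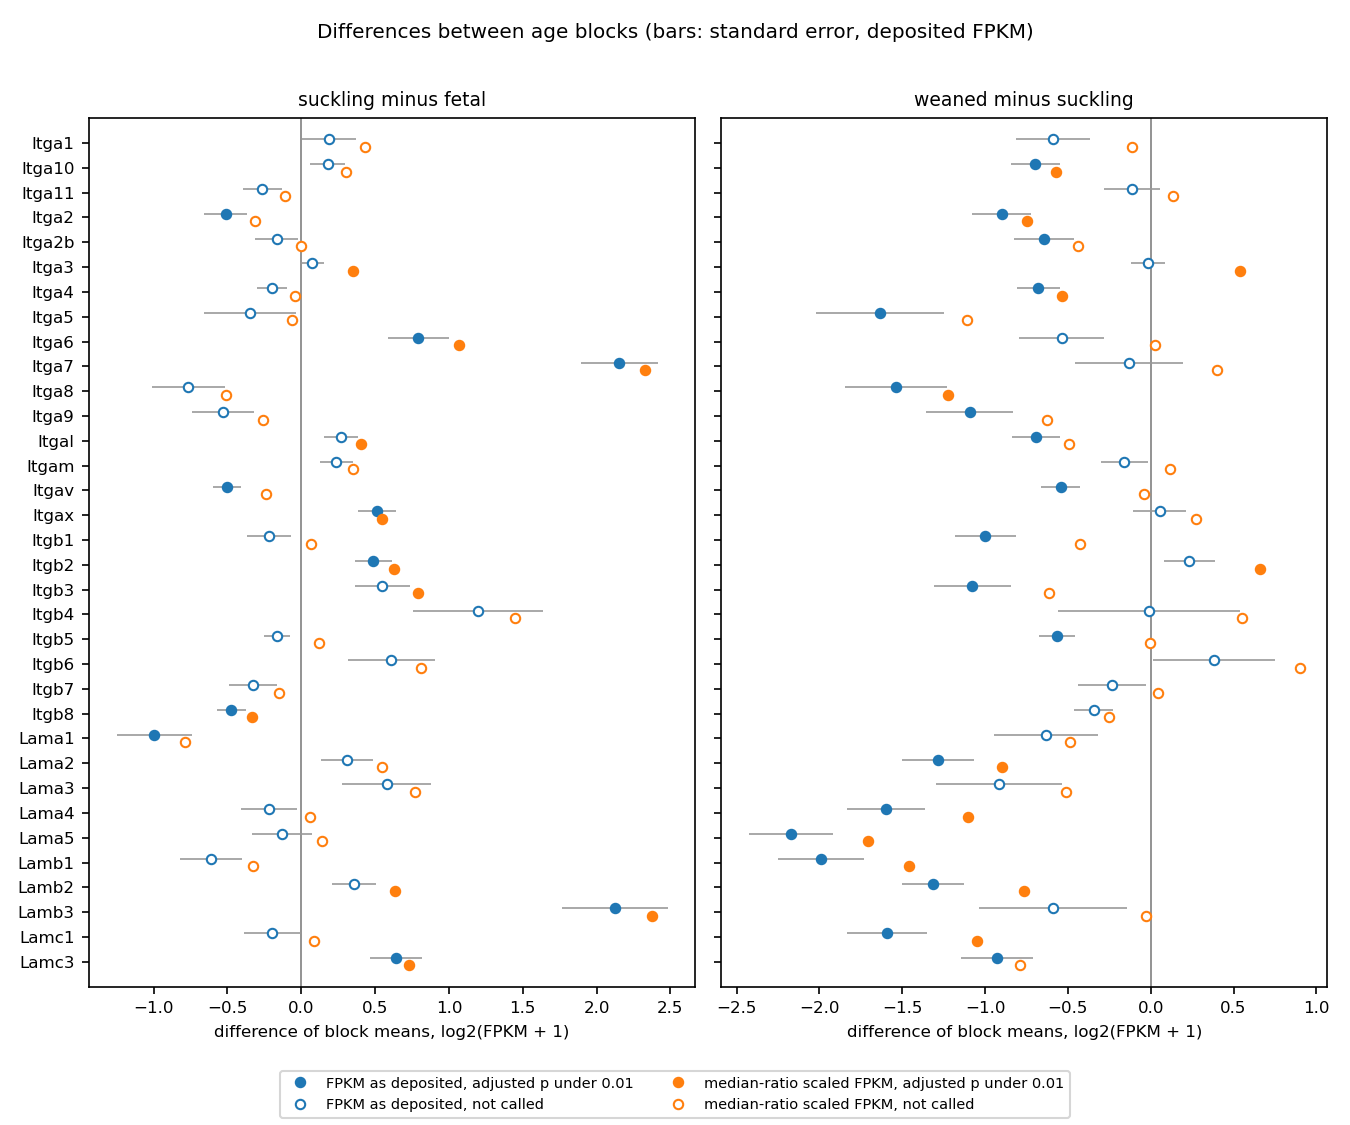
Differences between block means on the log2(FPKM + 1) scale for 34 of the 35 tested chains, suckling minus fetal at left and weaned minus suckling at right. Blue points are FPKM as deposited with the standard error as bars, orange points are median-ratio scaled FPKM, and filled points have an adjusted p under 0.01. Lamb3 and Itga7 stand farthest to the right at left, and Lama5 and Lamb1 farthest to the left at right, on both scales.

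The laminin chains with the largest changes at the 2 steps were Lamb3, which rose after birth, and Lama5 and Lamb1, which fell after weaning. The stretch from 250 to 61 bases before a RefSeq start of each gene (RefSeq, GRCm38.p6) is shown in the direction of transcription. Bases are in lower case, with each GC box (GGGCGG on either strand, bound by Sp1 family factors) in capitals. The Lamb3 stretch lies at chr1:193301744-193301933 on the plus strand, the Lamb1 stretch at chr12:31265043-31265232 on the plus strand, and the Lama5 stretch at chr2:180225920-180226109 on the minus strand. No annotated exon (GENCODE vM21) falls in any of the 3 stretches shown. Lamb3 has another stretch, at chr1:193301993-193302182, which is not shown. It holds an annotated exon and no GC box.
Lamb3: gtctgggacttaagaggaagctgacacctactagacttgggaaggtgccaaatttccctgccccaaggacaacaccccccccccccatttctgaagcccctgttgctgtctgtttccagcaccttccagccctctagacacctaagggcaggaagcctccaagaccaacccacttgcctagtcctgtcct
Lamb1: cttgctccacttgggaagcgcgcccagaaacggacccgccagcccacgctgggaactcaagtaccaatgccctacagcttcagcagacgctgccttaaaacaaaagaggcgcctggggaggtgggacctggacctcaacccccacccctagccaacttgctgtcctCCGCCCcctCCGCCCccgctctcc
Lama5: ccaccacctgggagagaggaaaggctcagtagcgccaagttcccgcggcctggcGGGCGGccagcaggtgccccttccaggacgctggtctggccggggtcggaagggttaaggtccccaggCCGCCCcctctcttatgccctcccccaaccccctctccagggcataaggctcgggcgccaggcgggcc
The Lamb1 and Lama5 stretches held 2 GC boxes each and the Lamb3 stretch held none. Of all 32851 stretches in the table, 22.8% held a GC box, as did 8 of the 26 stretches that belong to 23 of the 37 chain genes. An AP-1 motif (TGA and TCA around any base), a TATA box (TATAAA) and the CArG box were in 5.22%, 8.73% and 1.08% of all stretches and in none of the 26. The stretches end 61 bases before the start, so a TATA box or other motif nearer the start could not be found here. The gene body measured for Lamb3 starts at position 193294359 of chromosome 1, and that for Lamb1 at position 31264951 of chromosome 12. Both lie before the RefSeq starts used here, so the Lamb3 and Lamb1 stretches fall inside the gene bodies measured.

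Lamb3, the beta chain found in the epithelial anchoring laminin, had the largest rise among the laminins. Its fetal values lay between 2.47 FPKM (E12.5) and 17.7 FPKM (E18.5) with a median of 8.93 FPKM, its suckling values were 28.0 (D1), 49.3 (D3), 37.6 (D5), 47.5 (W1) and 46.7 FPKM (W2), and its weaned values were 34.7 (W3), 25.3 (W6) and 22.1 FPKM (W8). Every suckling library lay above every fetal library, and the W3 library fell within the suckling range. The suckling median was 5.23 times the fetal median, and the difference was 2.12 ± 0.36 (SE; adjusted p = 0.000411) on deposited and 2.37 on scaled FPKM (adjusted p = 0.000379). The exact two-sided permutation test gave p = 0.0025, the smallest that these group sizes allow. The weaned minus suckling difference was not called, at −0.59 ± 0.45 on deposited FPKM (adjusted p = 0.273) and −0.030 on scaled FPKM (adjusted p = 0.970). On deposited FPKM the W6 and W8 libraries lay below every suckling library. The confidence bounds deposited with each value, which cover counting error within a library, were 2.1 to 2.84 FPKM at E12.5 and 26.6 to 29.5 FPKM at D1.

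Lama3, the alpha chain found with Lamb3, did not pass the test at either step. It had a fetal median of 4.02 FPKM (lowest 0.469 at E12.5, highest 5.15 at E17.5), suckling values of 4.70, 4.34, 6.18, 3.54 and 5.30 FPKM from D1 to W2, and weaned values of 3.10, 1.54 and 1.71 FPKM. Its fetal and suckling ranges overlapped, and all weaned values lay below all suckling values. The suckling minus fetal difference was 0.58 ± 0.30 (adjusted p = 0.113), and the difference at weaning was −0.92 ± 0.38 (adjusted p = 0.0550), the latter with an adjusted p of 0.00933 when E12.5 was left out. On scaled FPKM the 2 differences were 0.77 and −0.51 (adjusted p = 0.0385 and 0.282). The FPKM of Lamb3 per FPKM of Lama3, a ratio that no scaling of a library alters, stood between 2.22 and 5.27 in the fetal block, 5.96 and 13.4 in the suckling block, and 11.2 and 16.4 in the weaned block. Lama3 thus stood below Lamb3 at all 15 ages.

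The receptor of this laminin joins Itga6 and Itgb4, and the FPKM of Itga6 per FPKM of Itgb4 went from 7.57 at E12.5 to 1.65 at E18.5 and 1.39 at W8. Itga6, the alpha chain, had a fetal median of 23.6 FPKM (14.1 at E12.5 to 35.1 at E18.5), suckling values of 28.2, 40.5, 38.0, 41.2 and 51.2 FPKM from D1 to W2, and weaned values of 29.1, 21.6 and 30.0 FPKM. The blocks overlapped, since D1 lay below E18.5. It was higher in the suckling block by 0.79 ± 0.21 (adjusted p = 0.00493) and by 1.07 on scaled FPKM (adjusted p = 0.00195), with an exact permutation p = 0.0051. Leaving out E13.5, E14.5, D3, W1 or W2 moved the adjusted p on deposited FPKM to 0.0113, 0.0114, 0.0121, 0.0136 and 0.0171. Itgb4, the beta chain that pairs with Itga6 alone, had a fetal median of 11.8 FPKM, with 1.86 FPKM at E12.5 and 22.9 FPKM at E17.5 as its extremes. Its suckling values were 24.9, 20.3, 27.5, 21.2 and 28.2 FPKM, and its weaned values were 27.3, 23.5 and 21.6 FPKM. The steep part of the Itgb4 course lay inside the fetal block, which widened the spread, and the difference of 1.2 ± 0.44 had an adjusted p of 0.0297 (0.0161 on scaled FPKM; exact permutation p = 0.018). With the study's own RNA phases, which put E18.5 with the suckling ages, it was 1.34 with an adjusted p of 0.00915. At weaning, Itgb4 differed by −0.011 ± 0.55 and Itga6 by −0.54 ± 0.26 (adjusted p = 0.993 and 0.0912), and on scaled FPKM by 0.55 and 0.024 (adjusted p = 0.460 and 0.959).

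Keratins and Trp63 mark the squamous basal epithelium. The sum of the 4 markers (Krt5, Krt14, Krt15 and Trp63) was 35.4 FPKM at E12.5 and peaked with 2183 FPKM at E17.5, then went from 1586 FPKM at D1 to 303.9 at W1 and 308.4 at W2, and then from 180.0 at W3 to 73.9 at W6 and 3.55 at W8. At W8 Krt5, Krt14, Krt15 and Trp63 stood at 1.26, 0.366, 1.87 and 0.0511 FPKM, and Itgb4 and Lamb3 at 21.6 and 22.1 FPKM. The sum of the 5 glandular epithelium markers was 493.0 FPKM at E12.5, 5684 FPKM at W6 and 3947 FPKM at W8. The part of either epithelium in the levels of the laminin and integrin chains was not tested. Leaving out W8 changed no call named for Lama3, Lamb3, Itga6 and Itgb4 on deposited FPKM.

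**Figure D2:**
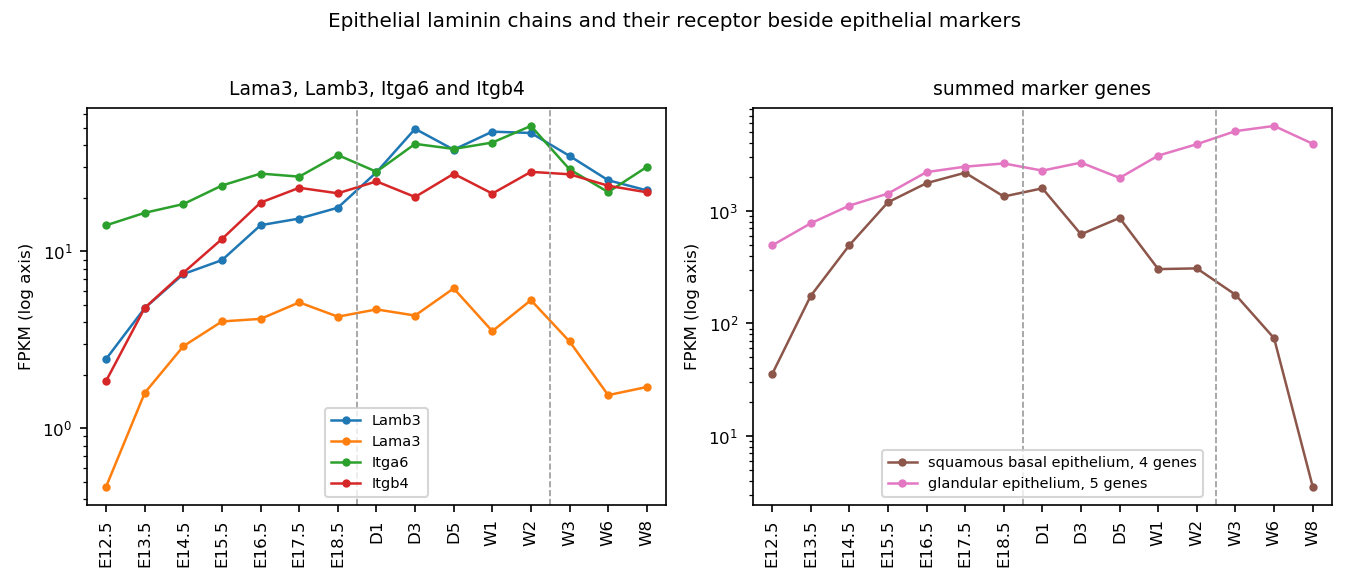
FPKM on log axes at the 15 ages for Lama3, Lamb3, Itga6 and Itgb4 (left) and for the summed markers of squamous basal and glandular epithelium (right), with dashed lines at birth and weaning. At W8 the squamous sum is 3.55 FPKM, and Itgb4 and Lamb3 are at 21.6 and 22.1 FPKM.

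Lama5, Lamb1 and Lamc1, which together form the main laminin of mature epithelial and vascular basement membranes, had their lowest values in the weaned block, after levels that went down from D5 to W6. Lama5 had a fetal median of 24.7 FPKM (16.2 at E12.5 to 28.7 at E16.5), suckling values of 22.0, 20.8, 32.0, 18.3 and 13.8 FPKM, and weaned values of 5.38, 2.50 and 3.94 FPKM. The weaned values lay below all others by a wide margin, with deposited bounds of 5.02 to 5.75 FPKM at W3 against 13.1 to 14.46 FPKM at W2. The suckling median was 5.27 times the weaned median. The difference was −2.17 ± 0.25 (adjusted p = 0.000115) on deposited and −1.71 on scaled FPKM (adjusted p = 0.000246), and the exact permutation p was 0.036, the smallest that 5 against 3 libraries allow. At birth Lama5 did not pass the test, with differences of −0.13 ± 0.20 on deposited and 0.14 on scaled FPKM (adjusted p = 0.589 and 0.532).

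Lamb1, the most abundant laminin chain of the fetal stomach, had a fetal median of 78.7 FPKM (62.4 at E18.5 to 81.6 at E16.5), suckling values of 46.5, 52.9, 58.1, 44.8 and 37.6 FPKM, and weaned values of 22.3, 8.04 and 7.63 FPKM. No block overlapped another. The weaned minus suckling difference was −1.99 ± 0.26 (adjusted p = 0.000175, with −1.46 and 0.000349 on scaled FPKM, and an exact permutation p = 0.036). Lamb1 had already gone down from 58.1 FPKM at D5 to 37.6 FPKM at W2. The suckling minus fetal difference of −0.61 ± 0.21 missed the threshold (adjusted p = 0.0209), reaching an adjusted p of 0.000886 only when W3 was left out. Lamc1, the gamma chain shared by most trimers, had a fetal median of 54.5 FPKM (43.0 at E12.5 to 59.0 at E15.5), suckling values of 42.6, 50.5, 60.9, 44.8 and 36.7 FPKM, and weaned values of 26.7, 10.5 and 11.2 FPKM. Its fetal and suckling ranges overlapped and all weaned values were lower. It fell by 1.59 ± 0.24 at weaning (adjusted p = 0.000367; a fall of 1.05 and 0.00190 on scaled FPKM; exact permutation p = 0.036), with an adjusted p of 0.0124 on scaled FPKM when W8 was also left out.

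The other beta chain of these trimers, Lamb2, followed a different course before weaning. It had a fetal median of 28.9 FPKM (26.7 at E12.5 to 31.2 at E17.5), suckling values of 35.9, 37.0, 53.3, 36.6 and 27.0 FPKM, and weaned values of 19.0, 10.5 and 14.6 FPKM. Only W2 in the suckling block lay within the fetal range, and the 3 weaned values were the lowest of all. At birth the difference was 0.36 ± 0.15 (adjusted p = 0.0512) on deposited and 0.64 on scaled FPKM (adjusted p = 0.00139), and at weaning it fell by 1.31 ± 0.19 (adjusted p = 0.000283) and by 0.77 on scaled FPKM (adjusted p = 0.00236). The FPKM of Lamb1 per FPKM of Lamb2 went from between 2.03 and 2.87 in fetal libraries to between 1.09 and 1.43 in suckling ones, and was 1.17, 0.763 and 0.521 at W3, W6 and W8.

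Among the alpha chains of muscle, vessel and nerve basement membranes, Lama4, an alpha chain of blood vessels, had a fetal median of 23.3 FPKM (16.9 to 26.2), suckling values of 17.7, 20.1, 25.2, 18.4 and 14.4 FPKM, and weaned values of 9.89, 4.12 and 4.05 FPKM. It fell at weaning by 1.60 ± 0.23 (adjusted p = 0.000322) and by 1.10 on scaled FPKM (adjusted p = 0.00139). Lama2, the alpha chain of muscle and peripheral nerve, had a fetal median of 4.80 FPKM (3.61 to 6.43), suckling values of 5.77, 7.11, 6.84, 5.54 and 6.77 FPKM, and weaned values of 3.85, 1.36 and 1.43 FPKM. It fell by 1.29 ± 0.22 (adjusted p = 0.000633) and by 0.90 on scaled FPKM (adjusted p = 0.00543), the latter with an adjusted p of 0.0331 without W8. All weaned values of both genes lay below all suckling values, and neither passed the test at birth.

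Lama1, the alpha chain of early embryonic basement membranes, was highest in the youngest stomach. Its fetal values were 5.64 FPKM at the highest (E12.5) and 1.29 FPKM at the lowest (E17.5), with a median of 3.40 FPKM, and it stood at 1.34, 1.03, 1.03, 0.963 and 0.953 FPKM in the suckling block and at 0.588, 0.180 and 0.255 FPKM in the weaned block. The suckling block was lower than the fetal block on deposited FPKM (−0.996 ± 0.25, adjusted p = 0.00439), and on scaled FPKM the adjusted p of 0.0106 just missed the threshold. Lamc3, a rare gamma chain, had a fetal median of 0.417 FPKM (0.180 to 1.31), suckling values of 1.32, 1.3, 1.85, 1.83 and 1.15 FPKM, and weaned values of 0.391, 0.180 and 0.341 FPKM. The fetal and suckling ranges overlapped only because W2 and D3 lay below E18.5. Lamc3 was higher after birth by 0.64 ± 0.18 (adjusted p = 0.00668; 0.73 and 0.00321 on scaled FPKM), a call that was lost with adjusted p between 0.0113 and 0.0205 when any of the libraries from E12.5 to E15.5, D1, D3, D5 or W1 was left out. At weaning it fell by 0.93 ± 0.22 on deposited FPKM (adjusted p = 0.00367), with adjusted p of 0.0101 on scaled FPKM, 0.0250 without W6 and 0.0120 without W8.

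**Figure D3:**
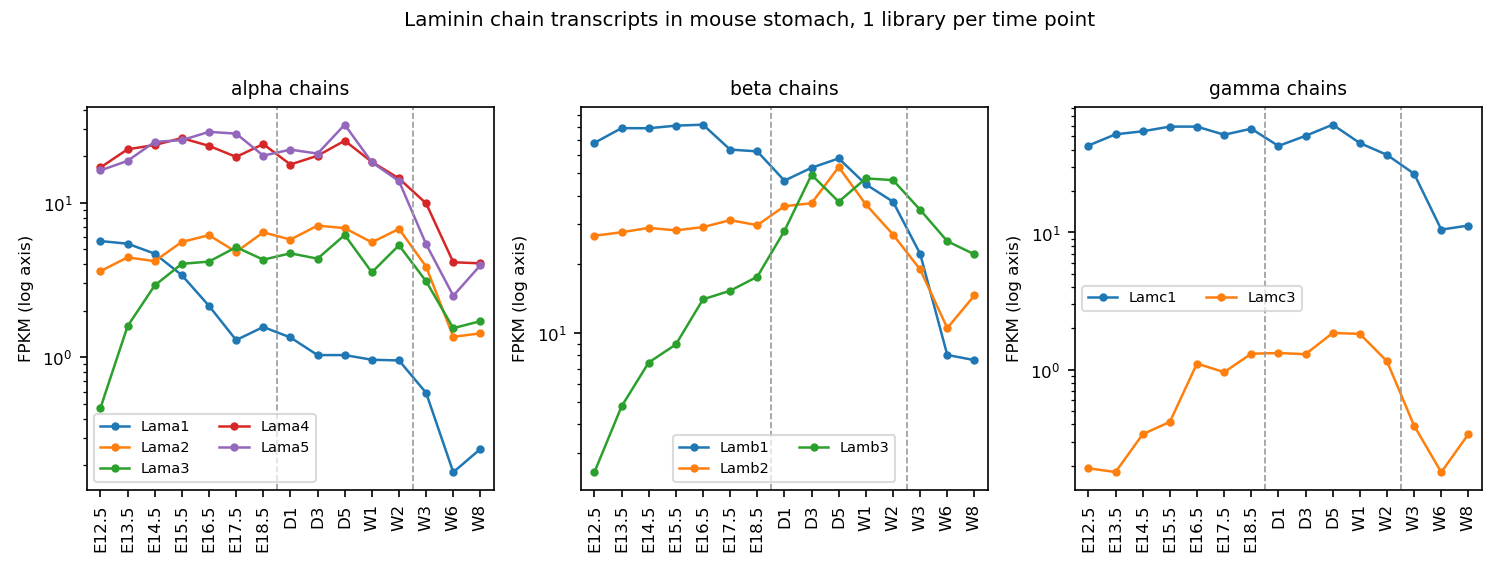
FPKM on log axes of laminin alpha, beta and gamma chains at the 15 ages, 1 library each, with dashed lines at birth and weaning. Lamb3 climbs from 2.47 to 49.3 FPKM by D3, Lama1 drops from 5.64 FPKM at E12.5, and Lama5, Lamb1 and Lamc1 go down from D5 to W6.

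Shares within a chain family do not depend on how a library is scaled, and they are given as a description. Lamb1 made up 70.0% of beta chain FPKM at E12.5, 56.9% at E18.5, 33.8% at W2 and 17.2% at W8, and Lamb3 made up 2.54%, 16.1%, 42.0% and 49.9% at the same ages. Lamb2 kept between 23.3% and 35.8% throughout. Among alpha chains, Lama1 went from 13.2% to 2.24% and Lama3 from 1.10% to 15.0% between E12.5 and W8, while Lama4 held between 33.5% and 43.3%. The epithelial chains Lama3 and Lamb3 held their largest shares of the 15 ages at W6, with 15.9% and 57.6%. The summed FPKM of the alpha and beta families was 42.8 and 97.1 FPKM at E12.5 and 11.4 and 44.4 FPKM at W8.

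**Figure D4:**
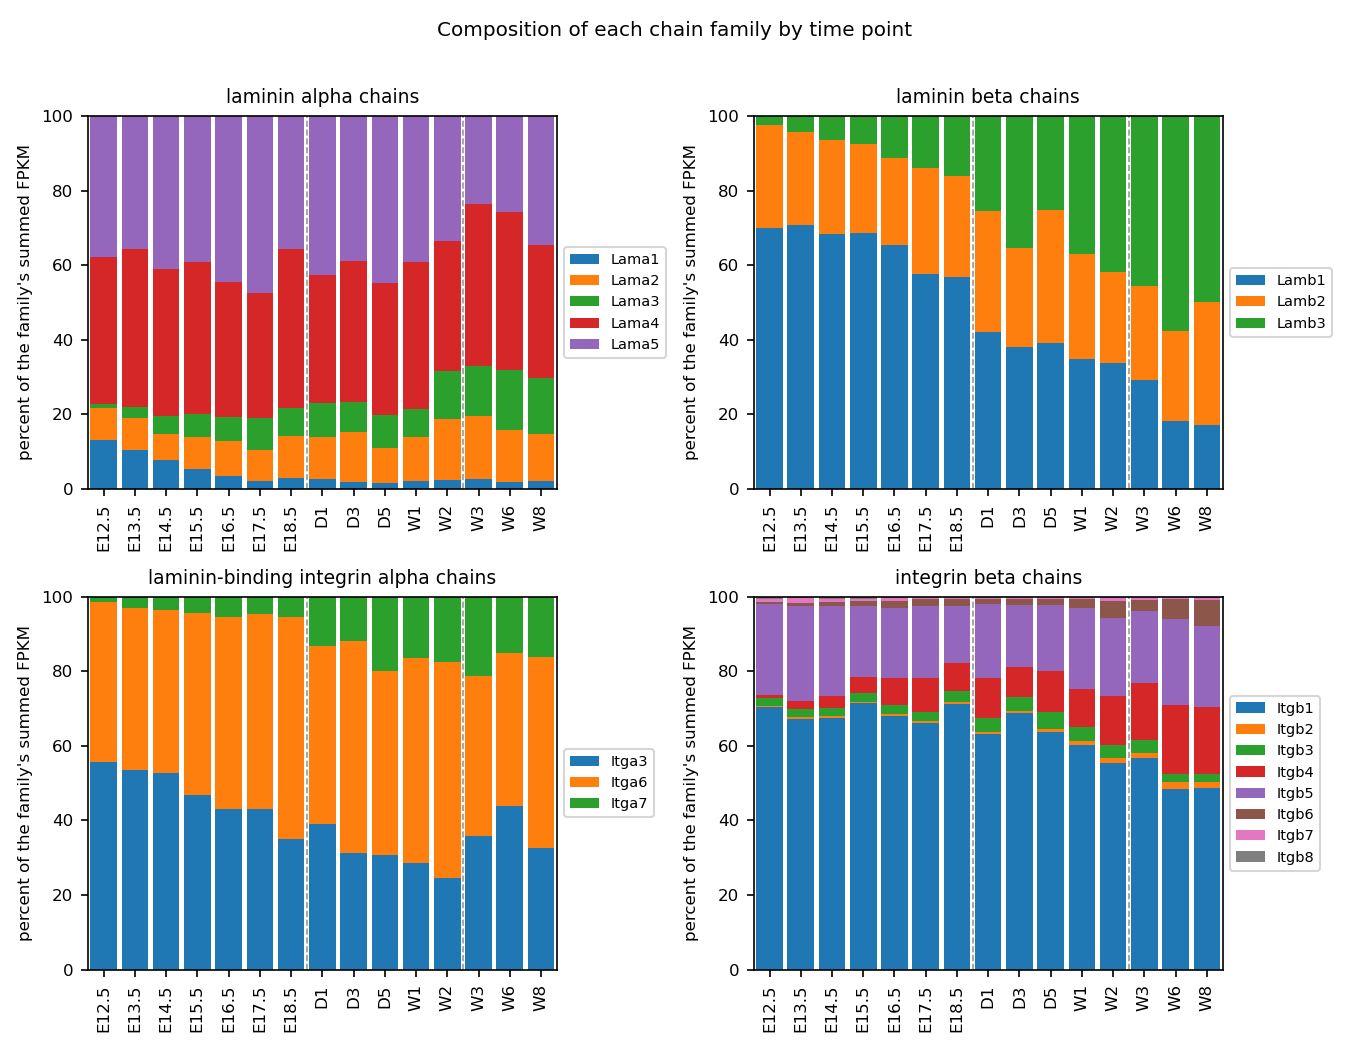
Percent of the summed FPKM of each chain family held by each member at the 15 ages, for laminin alpha and beta chains, laminin-binding integrin alpha chains and integrin beta chains, with dashed lines at birth and weaning. Lamb3 reaches 49.9% of its family at W8, from 2.54% at E12.5.

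Of the other laminin-binding integrin alpha chains, Itga7, the main laminin receptor chain of muscle, had the largest rise of all integrins. Its fetal values lay between 0.434 FPKM (E12.5) and 3.23 FPKM (E18.5; median 2.17), its suckling values were 7.80, 8.57, 15.3, 12.4 and 15.3 FPKM, and its weaned values were 14.4, 8.06 and 9.55 FPKM. Every suckling and weaned library exceeded every fetal library. The difference at birth was 2.15 ± 0.26 (adjusted p = 0.0001; 2.33 and 7.1e-05 on scaled FPKM; exact permutation p = 0.0025), and at weaning −0.13 ± 0.33 (adjusted p = 0.752; 0.40 and 0.335 on scaled FPKM). Summed FPKM of 7 smooth muscle markers went from 1295 at E12.5 to 6702 at E18.5 and 10630 at D5 and was 2125 at W8. The 7 skeletal muscle markers summed to between 3.83 and 65.5 FPKM in fetal, 54.5 and 93.7 FPKM in suckling and 11.2 and 96.8 FPKM in weaned libraries, with Myh8, Myod1 and Myog listed at 0 in some libraries. The part of either muscle in the level of Itga7 was not tested.

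Itga3, an epithelial receptor chain for laminins that hold Lama3 or Lama5, was the most even of the laminin receptors, at 18.1 to 24.3 FPKM over all 15 libraries. Neither step passed the test on deposited FPKM (0.073 ± 0.083 and −0.018 ± 0.10), and on scaled FPKM it was higher at both steps, by 0.35 and 0.54 (adjusted p = 0.00679 and 0.00281). As a share of Itga3, Itga6 and Itga7 together, Itga7 went from 1.33% at E12.5 to 5.48% at E18.5 and 17.4% at W2, and Itga3 from 55.6% to 35.0% and 24.5%. At W3, W6 and W8 the share of Itga7 was 21.3%, 15.2% and 16.3%, and that of Itga3 was higher again, at 35.8%, 43.9% and 32.6%.

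**Figure D5:**
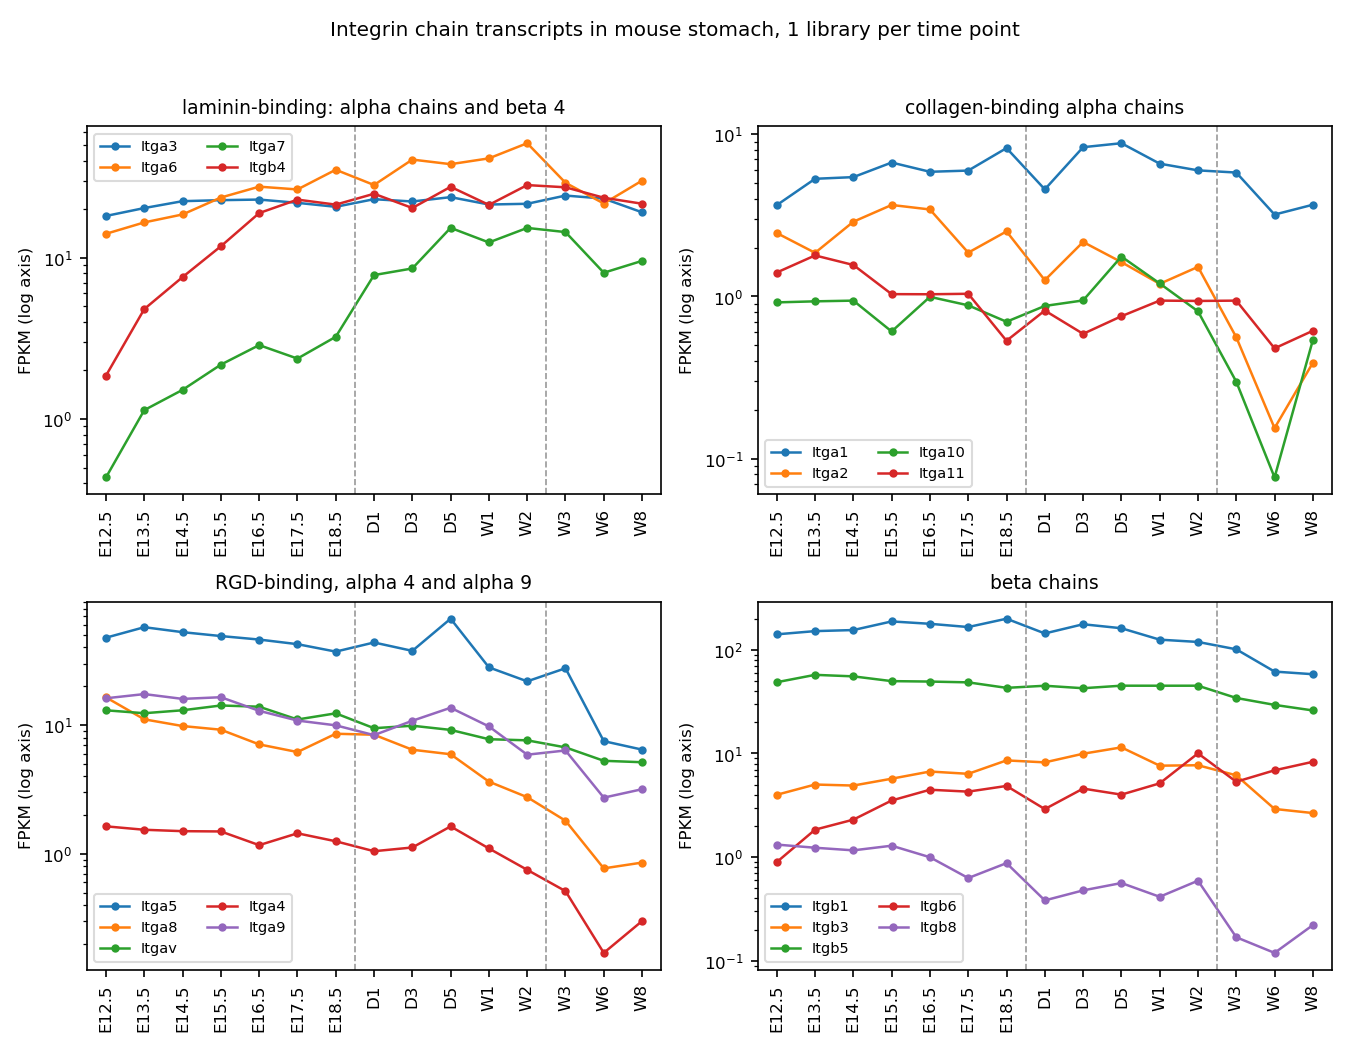
FPKM on log axes of integrin chains grouped by ligand and of 5 beta chains at the 15 ages, 1 library each, with dashed lines at birth and weaning. Itga7 climbs from 0.434 to 15.3 FPKM, Itga3 stays between 18.1 and 24.3 FPKM, and Itga8 and Itga2 end at 0.855 and 0.39 FPKM at W8.

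Itgb1, the beta chain shared by the laminin, collagen and fibronectin receptors, was the most abundant integrin chain in every library. It had a fetal median of 166 FPKM (141 at E12.5 to 200 at E18.5), suckling values of 144, 176, 162, 125 and 119 FPKM, and weaned values of 101, 61.7 and 58.2 FPKM. All weaned values were below all suckling values, and the step of −0.9999 ± 0.18 on deposited FPKM (adjusted p = 0.000992) was −0.43 with an adjusted p of 0.0603 on scaled FPKM. Itgb1 held 70.5% of integrin beta chain FPKM at E12.5 and 48.6% at W8, over which Itgb4 went from 0.928% to 18.0% and Itgb6 from 0.447% to 6.95%. Itgb5, an alpha v partner, stayed between 15.3% and 25.5%.

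Of the alpha chains that bind other matrix proteins, Itga2, Itga4, Itga8 and Itga10 fell at weaning on both scales. Itga8, which binds nephronectin and fibronectin and marks mesenchyme and smooth muscle, had a fetal median of 9.20 FPKM (6.17 to 16.4, the latter at E12.5), suckling values of 8.41, 6.43, 5.93, 3.64 and 2.75 FPKM, and weaned values of 1.81, 0.771 and 0.855 FPKM. Its weaned values were the lowest of all 15, the step was −1.54 ± 0.31 (adjusted p = 0.00151; −1.23 and 0.00439 on scaled FPKM), and the adjusted p was 0.0132 without W6. Its step at birth of −0.76 ± 0.25 missed the threshold (adjusted p = 0.0162), and passed it without E17.5 or D1 (adjusted p = 0.00943 and 0.00724). Itga5, the fibronectin receptor chain, stood between 37.2 and 57.5 FPKM in fetal libraries, and its suckling values of 43.7, 37.7, 66.9, 28.0 and 21.8 FPKM overlapped the weaned ones of 27.6, 7.497 and 6.44 FPKM. It was lower by 1.64 ± 0.39 at weaning on deposited FPKM (adjusted p = 0.00386) with an adjusted p of 0.0224 on scaled FPKM. Itgav, the alpha v chain, had fetal values of 11.0 to 14.2 FPKM, suckling values of 7.61 to 9.88 FPKM and weaned values of 5.14 to 6.71 FPKM, without overlap between blocks. Both of its steps were called on deposited FPKM (−0.50 and −0.54), and neither on scaled FPKM (−0.24 and −0.039, adjusted p = 0.0163 and 0.765).

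The collagen receptor chain Itga2 had a fetal median of 2.52 FPKM (1.86 to 3.67), suckling values of 1.26, 2.17, 1.63, 1.2 and 1.52 FPKM, and weaned values of 0.561, 0.154 and 0.390 FPKM. All weaned values lay below the others, with a fall at weaning of 0.90 ± 0.18 (adjusted p = 0.00148; 0.75 and 0.00376 on scaled FPKM) and an adjusted p of 0.0139 without W6. Its lower level after birth on deposited FPKM (−0.51 ± 0.14, adjusted p = 0.00763) had an adjusted p of 0.0638 on scaled FPKM, and was lost without E12.5, E14.5, E15.5, E16.5, D1, D5, W1, W2 or W8 (adjusted p of 0.01002 to 0.0242). Itga10, a collagen receptor chain best known from cartilage, had a fetal median of 0.920 FPKM (0.609 to 0.995), suckling values of 0.875, 0.946, 1.76, 1.2 and 0.810 FPKM, and weaned values of 0.298, 0.0766 and 0.538 FPKM. It was lower at weaning by 0.70 ± 0.15 (adjusted p = 0.00205; 0.57 and 0.00983 on scaled FPKM), with adjusted p of 0.0188 without W6 and 0.0115 on scaled FPKM without D1. Itga1 and Itga11, the other two collagen receptor chains, stood at 3.20 to 8.82 FPKM and 0.479 to 1.79 FPKM and passed neither test.

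Itga4, a chain that binds fibronectin and the vascular adhesion molecule Vcam1, had a fetal median of 1.49 FPKM (1.17 to 1.63), suckling values of 1.05, 1.12, 1.63, 1.10 and 0.751 FPKM, and weaned values of 0.513, 0.170 and 0.301 FPKM. The weaned values were the lowest, at −0.68 ± 0.13 (adjusted p = 0.00108; −0.53 and 0.00293 on scaled FPKM), and the adjusted p was 0.0104 without W6 and 0.0111 on scaled FPKM without W8. Itga9, which binds tenascin C and is found in smooth muscle and lymphatic vessels, ranged from 2.73 to 17.4 FPKM and was lower at weaning on deposited FPKM alone (−1.09 ± 0.26, adjusted p = 0.00407; 0.0366 on scaled FPKM).

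The beta chains that pair with alpha v took different courses. Itgb8, which with alpha v activates latent TGF-beta, had a fetal median of 1.16 FPKM (0.628 at E17.5 to 1.32 at E12.5), suckling values of 0.382, 0.478, 0.562, 0.414 and 0.592 FPKM, and weaned values of 0.169, 0.119 and 0.221 FPKM. No block overlapped another. It was the only chain lower after birth on both scales (−0.47 ± 0.095, adjusted p = 0.00110; −0.33 and 0.00411 on scaled FPKM; exact permutation p = 0.0025), and the adjusted p was 0.0117 on scaled FPKM without D1. Itgb6, an epithelial chain with the same TGF-beta activating role, stood at 0.895 FPKM at E12.5, 4.86 at E18.5, 10.02 at W2 and 8.31 at W8, and passed neither test (0.61 ± 0.29 and 0.38 ± 0.37, adjusted p = 0.0876 and 0.391). The FPKM of Itgb6 per FPKM of Itgb8 accordingly went from 0.678 at E12.5 to 5.55 at E18.5, 16.9 at W2 and 37.6 at W8, at most 57.8 at W6. Itgb3, the beta chain of platelets, endothelium and osteoclasts, had its highest value of 11.5 FPKM at D5 and was lower at weaning on deposited FPKM alone (−1.08 ± 0.23, adjusted p = 0.00228; 0.0476 on scaled FPKM). Itgb5 fell at weaning by 0.57 ± 0.11 on deposited FPKM (adjusted p = 0.00121) and stood at −0.0045 on scaled FPKM (adjusted p = 0.980).

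Integrins of blood cells were present at low levels. Itgb2, the beta chain of leukocyte integrins, had a fetal median of 1.004 FPKM (0.652 to 1.38), suckling values of 1.09, 1.66, 1.93, 2.04 and 2.40 FPKM, and weaned values of 2.52, 2.30 and 2.04 FPKM. It was higher after birth by 0.49 ± 0.12 (adjusted p = 0.00454; 0.63 and 0.00183 on scaled FPKM), with adjusted p of 0.0105 to 0.0153 without E15.5, D5, W1 or W2. At weaning, it was higher on scaled FPKM alone (0.66, adjusted p = 0.00682; 0.216 on deposited FPKM). Itgax, the alpha chain of dendritic cells, was listed at 0 at E12.5 and at most at 0.16 FPKM in other fetal libraries, at 0.335, 0.409, 0.352, 0.592 and 1.15 FPKM in suckling ones, and at 1.02, 0.292 and 0.570 FPKM in weaned ones. Its fetal and suckling values did not overlap (0.52 ± 0.13, adjusted p = 0.00407; 0.54 and 0.00411 on scaled FPKM), and the adjusted p was 0.0114 without W1. Itgal, a leukocyte alpha chain, ranged from 0.287 to 1.72 FPKM, was lower at weaning on deposited FPKM (−0.69 ± 0.15, adjusted p = 0.00206; 0.0143 on scaled FPKM) and was higher after birth on scaled FPKM alone (0.41, adjusted p = 0.00882). Itga2b, the platelet alpha chain, ranged from 0.312 to 2.66 FPKM and was lower at weaning on deposited FPKM alone (−0.65 ± 0.18, adjusted p = 0.00977; 0.0668 on scaled FPKM). Itgam and Itgb7 ranged from 0.428 to 1.21 and from 0.656 to 2.64 FPKM and passed the test at neither step.

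The 9 leukocyte markers summed to between 60.4 and 85.9 FPKM in fetal, 87.7 and 105.9 FPKM in suckling and 62.9 and 107.8 FPKM in weaned libraries, without overlap between the fetal and suckling blocks. Among them, the lymphocyte genes Cd3e and Cd79a were listed at 0 in some libraries and never exceeded 0.405 FPKM. Of the other 7, which were tested, 1 was higher and 0 lower after birth on deposited FPKM, against 10.8% and 30.6% of all symbols. The sum thus does not stand for each marker, and Coro1a went from 22.2 FPKM at E13.5 to 11.6 FPKM at W2. The part of leukocyte number in the levels of Itgb2 and Itgax was not tested. Likewise the weaned block had the lowest sums of the endothelial markers (5 genes, 19.3 to 33.7 FPKM, against 48.4 to 83.1 FPKM in suckling libraries), of the fibroblast markers (5 genes, 137.3 to 604.7 against 632.4 to 1766 FPKM) and of the enteric neuron and glia markers (5 genes, 5.24 to 9.86 against 19.1 to 31.5 FPKM). The 4 mesothelial markers were at 9.09 to 22.4 FPKM in weaned against 26.2 to 92.0 FPKM in suckling libraries. Of the endothelial, fibroblast and enteric markers, 4 of 5, 4 of 5 and 5 of 5 were lower at weaning on deposited FPKM, as were 1 of 7 smooth muscle, 1 of 4 mesothelial and 0 of 5 glandular markers and 28.9% of all symbols. The part of these cell types in the falls of Lama2, Lama4, Lama5, Lamb1, Lamb2, Lamc1, Itga4 and Itga8 was not tested.

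Partners of the laminins in the basement membrane mostly fell with them at weaning. Of 17 tested (collagen IV chains, nidogens, perlecan, agrin, Sparc, Fras and Frem genes among them), 13 were lower and 0 higher at weaning on deposited FPKM and 9 lower on both scales (28.9% and 7.95% of all symbols were lower), with a median difference of −1.60 against −0.42 for all symbols (−1.06 against −0.027 on scaled FPKM). Nid2, the nidogen that bridges laminin and collagen IV, had medians of 33.1, 12.53 and 1.67 FPKM in the fetal, suckling and weaned blocks, a step at weaning of −2.01 ± 0.30 (adjusted p = 0.00033). Frem1 and Frem2, extracellular partners in epithelial basement membranes, had medians of 13.4, 5.37 and 0.266 FPKM and of 17.8, 12.4 and 2.84 FPKM, with steps of −1.96 ± 0.30 and −1.94 ± 0.23 (adjusted p = 0.000374 and 0.000122). Sparc, a collagen chaperone, fell by 1.93 ± 0.42 on deposited FPKM (adjusted p = 0.00231), with an adjusted p of 0.0183 on scaled FPKM.

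Of 10 other laminin receptors and hemidesmosome genes, 1 was higher and 1 lower after birth (10.8% and 30.6% of all symbols), and 4 were lower at weaning (28.9%), of which 1 held on both scales (7.95%). That gene was Bcam, a laminin alpha 5 receptor, with block medians of 119.7, 69.0 and 17.8 FPKM and a step of −1.66 ± 0.28 (adjusted p = 0.00065; −1.11 and 0.00577 on scaled FPKM). Col17a1, the hemidesmosome collagen, had medians of 16.0, 13.8 and 0.641 FPKM and a step of −2.997 ± 0.79 on deposited FPKM (adjusted p = 0.00669; 0.0147 on scaled FPKM), in contrast to Itgb4. Of 17 other integrin ligands, 5 were lower and 1 higher after birth (30.6% and 10.8% of all symbols). At weaning 13 were lower, 5 of them on both scales (28.9% and 7.95%). These included the Itga8 ligand Npnt (medians of 36.4, 48.2 and 7.005 FPKM, −2.29 ± 0.38, adjusted p = 0.000595) and Madcam1, a ligand of alpha 4 beta 7 (−2.37 ± 0.39, adjusted p = 0.000569). Fbn1, the microfibril protein, was also among them (−1.94 ± 0.38, adjusted p = 0.00144). Vtn, the alpha v ligand vitronectin, rose after birth, by 1.88 ± 0.38 (adjusted p = 0.00118), with block medians of 0.905, 3.97 and 13.01 FPKM. Its highest suckling value, 20.5 FPKM, was that of the D1 library, which held the liver transcripts, and the lowest suckling value of 2.84 FPKM lay above the highest fetal value of 1.23 FPKM. The part of liver RNA in the level of Vtn was not tested.

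Of 32 intracellular activators, adaptors and kinases of integrins, 3 were higher and 5 lower after birth (10.8% and 30.6% of all symbols). At weaning 15 were lower and 0 higher on deposited FPKM, and 2 of the 15 were lower on both scales (28.9% and 7.95% of all symbols were lower). Those 2 were Tgfb1i1, a focal adhesion protein of smooth muscle (−1.95 ± 0.30, adjusted p = 0.000405), and the kindlin Fermt2 (−1.52 ± 0.24, adjusted p = 0.000462). Lims2, a partner of integrin-linked kinase, rose after birth from a median of 11.3 to 40.3 FPKM (1.84 ± 0.35, adjusted p = 0.000799), and vinculin (Vcl) was lower at weaning on deposited FPKM (−1.30 ± 0.25, adjusted p = 0.00121; 0.0247 on scaled FPKM). The median difference at weaning was −0.53 for this list, near the −0.42 of all symbols.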

How the data were processed

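RNA-Seq was done on whole stomach at 15 ages, and the labels name stomach, although the RNA paragraph of the study's methods names liver. The authors deposited 1 table per age with FPKM, and lower and upper FPKM confidence bounds, for each gene entry. Per the methods, reads were mapped with HISAT2 and quantified with StringTie on GRCm38.p2, while the submitters' processing notes name Bowtie 0.12.2 and FastQC. Read counts and depth are not given in the files, so FPKM allows no count model here.

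The entries of each symbol were summed, symbols that reached 1 FPKM in any library were kept, and log2(FPKM + 1) was tested with limma 3.58.1 in R 4.3.3 (fetal, suckling and weaned blocks, Benjamini-Hochberg over 16902 symbols, threshold 0.01). Blocks followed birth and weaning, because the study drew its RNA phases from these transcriptomes. Means of single chains were compared by exact two-sided permutation tests (SciPy 1.17.1). On simulated FPKM with known shifts the script was checked. Named in full were 20 chains, those called in the same direction on deposited and median-ratio scaled FPKM, the hemidesmosome set and the Lama5, Lamb1, Lamc1 and Itgb1 set, and up to 4 called genes of each pathway list. The values of 1 further chain, which is part of the counts, are not reported here. The members and all lists were chosen with earlier results of these data known. The tested alternatives were pseudocounts, FPKM limits, scalings, other age blocks, single entries, a mean-variance trend, an F test on untransformed FPKM and leaving out each age. Coordinates are those of the files.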

Additional observations from a re-analysis of the deposited data

Results flagged for a closer look

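Each tested chain was looked at in the fetal and the suckling block for a library far from the others, by the gap to the nearest value over the whole range on the log2(FPKM + 1) scale. Of 70 sets of values, 3 were singled out, where chance singles out about 1 in 20. Itgb5 stood at 42.6 FPKM at D3, lowest of the suckling ages, with the other 4 between 45.0 and 45.1 FPKM. Lama1 stood at 1.34 FPKM at D1, highest of the suckling ages, with the next value at 1.03 FPKM. Lamc1 stood at 43.0 FPKM at E12.5, lowest of the fetal ages, with the next value at 51.5 FPKM.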

How the results depend on the processing

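The ages have 1 library each, so a difference rests on ages as replicates, and no paired analysis was possible because no group has numbered replicates. Of 960 values of the 20 fully described chains under 24 alternatives, 842 kept direction and side of the threshold, 67 lost and 15 gained a call, and 36 changed sign, none of them past the threshold. The rises of Lamb3 and Itga7 after birth and the falls of Lama4, Lama5, Lamb1 and Lamb2 at weaning passed under all 24. The cause of a change was not tested, unless the alternative tests fewer genes or samples.

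With a limit of 5 FPKM, which tests fewer genes, 17 chains differed across blocks, 3 were higher and 2 lower after birth. Of the 12440 symbols tested there, 9274, 1451 and 4564 did so. Median-ratio scaling gave 10 higher and 1 lower after birth and 2 higher and 10 lower after weaning (2966, 2471, 2050 and 1344 of 16902 symbols). Without D1 as well (added after seeing the data), 0 were lower after birth, 1 higher after weaning and 9 lower (2022, 1565 and 979 symbols). Without W8 instead (also added after seeing the data), 1 was lower after birth, 1 higher after weaning and 5 lower (2507, 1511 and 779 symbols). Quantile normalization gave 1 higher and 7 lower after weaning (1363 and 897 symbols), and the study's protein phases 7 lower after birth (6035 symbols). Leaving out each age in turn gave 2 (without W1) to 7 higher and 2 (without E14.5, W1 or W2) to 5 lower after birth. After weaning it gave 8 (without W6) to 20 lower. Over all symbols these ranges were 1284 to 2253, 3724 to 6054 and 1375 to 5672. Without W8, 13 chains and 3012 symbols were lower after weaning. Quantile normalization ended the calls of Itga2, Itga4, Itga8, Itga10 and Lamc3 at weaning and of Itgax after birth, a pseudocount of 5 those of Itga2 in both comparisons, Itga10 at weaning and Itgax after birth, a pseudocount of 0.1 those of Lamc3 and Itga2 after birth, the fixed sum and the RNA phases that of Itga2 after birth, the study's RNA and protein phases those of Itgax and Itgb2 after birth, and median-ratio scaling those of Itga2 after birth and of Itgb1 and Lamc3 at weaning. Median-ratio scaling without W8 also ended those of Itga2, Itga4, Itga8, Lama2 and Lamc1 at weaning, and without D1 those of Itga10 at weaning and Itgb8 after birth.

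Sign changes concerned differences that passed in no setting, except that of Itgb8 at weaning, which passed with a pseudocount of 0.1, with the protein phases and without E17.5. At weaning under median-ratio scaling, Itga6 stood at 0.024, Itga7 at 0.40 (0.27 without D1, 0.46 without W8), Itgb4 at 0.55 (0.55 and 0.63) and Lamb3 without W8 at 0.11. After birth under that scaling, Itgb1 stood at 0.069 (0.075 and 0.069), Lama4 at 0.057 (0.085 and 0.057), Lama5 at 0.14 (0.13 and 0.14) and Lamc1 at 0.087 (0.12 and 0.087). Quantile normalization gave 0.34 for Itga7, 0.30 for Itgb4 and 0.011 for Itgb8 at weaning and 0.053 for Lama5 after birth. The study's RNA and protein phases gave 0.13 and 0.36 for Itga7 and 0.019 and 0.025 for Itgb4 at weaning, and a fixed sum without the 10 highest symbols gave 0.048 for Itgb4. Leaving out 1 age gave signs opposite to the full data at weaning for Itga7 (−0.35 to 0.033), Itgax (−0.11 to 0.21) and Itgb4 (−0.099 to 0.063), and after birth for Lama5 (−0.28 to 0.0048).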
